A study of Mus musculus with 23 samples.

Results

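The *longissimus dorsi*, a paraspinal muscle that extends and steadies the spine, was compared between mice flown in microgravity and mice kept on the ground in the same kind of cage unit. The comparison used the 5 arrays labelled BF and the 5 labelled BG for this muscle, out of 23 arrays in the series, and it covered all 22626 probe sets of an Affymetrix mouse genome array. BF (Bion Flown) mice spent 30 days in orbit on the Bion M1 biosatellite. BG (Bion Ground) mice lived in the biosatellite habitat under Earth gravity. A further 5 *longissimus dorsi* arrays came from FC (Flight Control) mice of an ordinary animal facility, and 8 arrays (3 BF, 3 BG and 2 FC) came from tongue, and both are given only beside a result. All animals were adult males, labelled C57/BL6 and, in the series text, C57BL/N6, and no transgene or drug is named for any group. Flown mice were sampled on the ground some hours after landing, so that flight, landing and the return to gravity cannot be told apart in the BF arrays. Each array held RNA from 1 muscle of 1 mouse.

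Muscle mass follows the balance between protein synthesis and breakdown. When load is taken away, or when glucocorticoid or inflammatory signals rise, FoxO transcription factors can turn on ubiquitin ligases such as Fbxo32 (atrogin-1), which mark muscle proteins for the proteasome, together with genes of autophagy. Insulin and growth factor signalling through PI3 kinase and Akt restrains the same factors, and slow fibres, which hold posture, differ from fast fibres in their myosin, troponin and calcium-store genes.

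Values are log2 units per probe set as deposited after RMA (robust multi-array average), so a difference of 1 is 2-fold. The 12 markers of skeletal muscle fibres averaged 13.96 to 14.08 in the 15 *longissimus dorsi* arrays. The 15 keratinocyte markers averaged 5.18 to 5.55 there against 11.59 to 11.97 in tongue, an organ covered by epithelium. Array medians lay between 6.42 and 6.53 in the 10 arrays. One array stood apart: BG replicate 5 deviated from its group mean with an SD of 0.36, against 0.16 to 0.23 in the other BG arrays and 0.15 to 0.25 in the BF arrays. It was the highest of the 10 arrays for all 24 macrophage markers measured and for 7 of 9 mast cell markers. In bulk RNA of this kind, fewer cells of a type and less RNA per cell cannot be told apart. Many counts moved with this array, and for the gene groups with the clearest shifts they are given below with and without it.

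Flown and ground mice differed by more than 2-fold in a small set of genes, most of which were higher in flown mice. Of the 22626 probe sets, 96 (0.424%) passed an adjusted p of 0.05 with a change of more than 2-fold, and these are referred to as called. Among them 72 (0.318%) were higher in BF and 24 (0.106%) were lower. They named 74 genes, 55 higher and 19 lower, while 7 called probe sets named no single gene in the annotation. The adjusted p alone was passed by 2318 probe sets (10.2%), of which 1451 (6.41%) were higher and 867 (3.83%) lower. With each array centred on its median the split was 1199 higher and 1031 lower, and with array weights 2653 and 2442. Most of these changes were small: 2222 of the 2318, or 95.9%, were under 2-fold, and their median size was 0.47 against a median SE of 0.12. In 1580 probe sets (6.98%) the BF and BG arrays did not overlap at all, 967 (4.27%) with every BF array above and 613 (2.71%) with every BF array below. Of the called probe sets 60 did not overlap, 51 of the higher and 9 of the lower. The median change over all probe sets was -0.03.

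**Figure D1:**
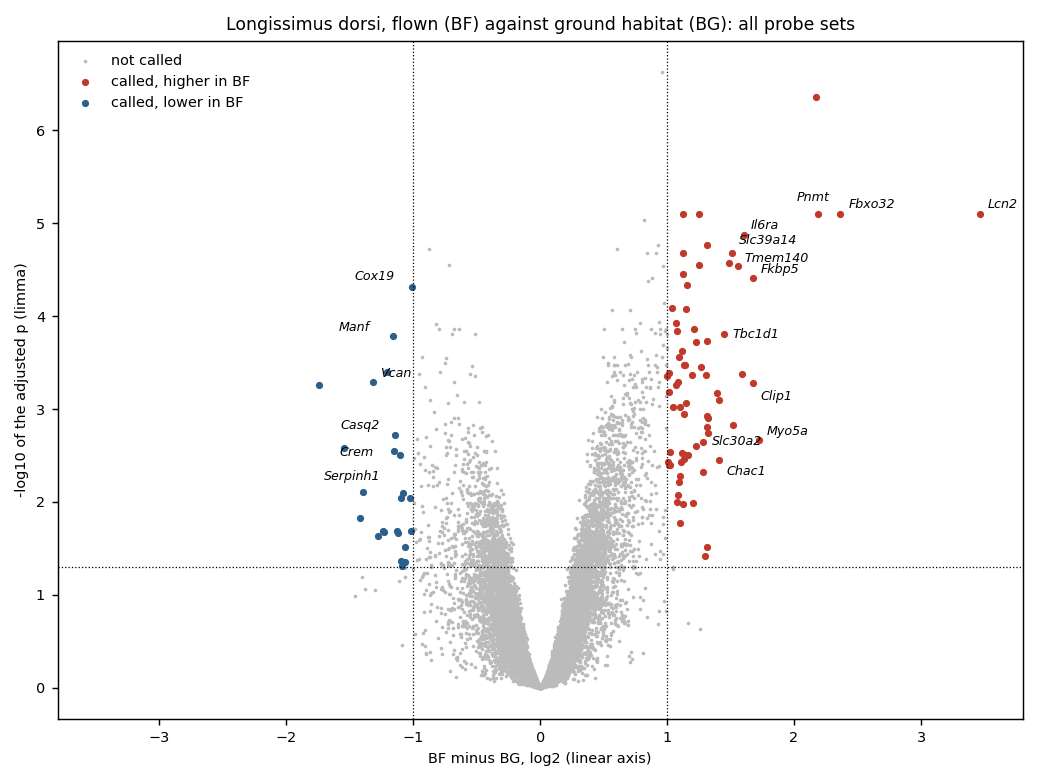
Change in BF relative to BG (log2, horizontal) against the -log10 of limma's adjusted p (vertical) for each of the 22626 probe sets, with dotted lines at 2-fold and at an adjusted p of 0.05. The 72 red points to the right outnumber the 24 blue points to the left, and Lcn2, at 3.47, lies farthest from 0.

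The threshold cut through a continuum. Just inside it stood Syncrip at 1.0 and Nedd4l at 1.01, and just outside it stood Smad6 at 0.9995 and Dynll1 at -0.99, each of the latter pair past the adjusted p. The smallest adjusted p of all probe sets, 2.32e-07, belonged to one of those just outside: Zfand5, which encodes a ubiquitin-binding zinc finger protein of muscle protein breakdown and is named here because of its value. Zfand5 read 12.86, 12.73, 12.81, 12.89 and 12.84 in BF replicates 1 to 5 and 11.81, 11.85, 12.07, 11.93 and 11.66 in BG replicates 1 to 5. The 5 flown mice agreed within 0.16, and every one lay above every ground mouse, with a difference of 0.96 ± 0.08 (SE).

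The largest increase was in Lcn2 (probe set 1427747_a_at), which encodes lipocalin 2, a secreted protein that binds iron-carrying siderophores and rises in acute-phase responses. Lcn2 values were 9.50, 8.54, 10.15, 9.69 and 10.68 in BF and 6.09, 5.58, 5.96, 5.73 and 7.86 in BG, in order of replicate. The groups did not overlap, the difference of 3.47 ± 0.35 was 11.1-fold (adjusted p = 7.88e-06), and BG replicate 5 stood 1.77 above the next BG array. FC mice averaged 5.53, below both groups. Fbxo32 (probe set 1417522_at), the muscle ubiquitin ligase atrogin-1, came next. Fbxo32 stood at 12.26, 12.23, 12.73, 12.50 and 12.43 in BF and at 10.31, 10.46, 10.18, 10.02 and 9.37 in BG, replicate by replicate. All 5 flown mice lay within 0.50 of each other and above every ground mouse, 5.14-fold higher on average (2.36 ± 0.25, adjusted p = 7.88e-06). Its other probe set gave 2.17 ± 0.18, with an adjusted p of 4.31e-07.

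Pnmt (probe set 1450606_at) encodes the enzyme that turns noradrenaline into adrenaline, and its expression is known to respond to glucocorticoids. Pnmt read 7.56, 8.16, 8.0, 9.46 and 8.22 in BF replicates 1 to 5 and 5.68, 6.19, 6.25, 6.35 and 5.99 in BG replicates 1 to 5. BF replicate 4 was the highest array and no BF array reached down to the BG range, a 4.56-fold difference (2.19 ± 0.22, adjusted p = 7.88e-06). The 3 Pnmt probe sets did not behave alike: the second read 0.63 (adjusted p = 0.0360), a pass lost in 6 of the 10 fits that leave out 1 array (adjusted p up to 0.112 without BF replicate 4), and the third read -0.10 (adjusted p = 0.614). Fkbp5 (probe set 1448231_at), a co-chaperone that damps the glucocorticoid receptor and is itself switched on by it, was 3.21-fold higher (1.68 ± 0.21, adjusted p = 3.92e-05). Fkbp5 values were 8.61, 7.71, 8.74, 9.18 and 8.63 in BF and 6.72, 6.86, 7.08, 7.11 and 6.71 in BG, in order of replicate. The lowest flown mouse, replicate 2, was still 0.60 above the highest ground mouse. Il6ra (probe set 1452416_at), the receptor subunit that binds interleukin-6, was 3.04-fold higher (1.60 ± 0.17, adjusted p = 1.33e-05). Il6ra stood at 8.43, 8.38, 8.15, 8.73 and 7.83 in BF and at 6.47, 6.72, 6.98, 6.33 and 7.0 in BG, replicate by replicate. Again the groups were apart, by 0.83, and FC mice averaged 7.30, between them.

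Among genes of traffic and the cytoskeleton, Myo5a (probe set 1419754_at), the myosin Va motor that carries vesicles along actin, rose 3.31-fold (1.73 ± 0.33, adjusted p = 0.00217). Myo5a read 8.24, 7.0, 8.71, 8.20 and 7.25 in BF replicates 1 to 5 and 6.64, 5.94, 5.44, 5.89 and 6.87 in BG replicates 1 to 5. Its spread was wide in both groups, and the lowest BF array was only 0.13 above the highest BG array. Clip1 (probe set 1425060_s_at), a protein of growing microtubule ends, rose 3.2-fold (1.68 ± 0.27, adjusted p = 0.000529). Clip1 values were 8.68, 8.94, 9.20, 9.10 and 8.81 in BF and 6.79, 6.98, 6.63, 7.30 and 8.64 in BG, in order of replicate. Here BG replicate 5 sat 0.05 under the flown mice and 1.33 above the next BG array, and without it the change was 2.02.

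Metal and nutrient handling gave the next group. Slc39a14 (probe set 1427035_at), the importer ZIP14 for zinc, iron and manganese, was 2.85-fold higher (1.51 ± 0.17, adjusted p = 2.08e-05). Slc39a14 stood at 9.06, 8.65, 9.24, 9.41 and 8.70 in BF and at 7.41, 7.49, 7.75, 7.47 and 7.39 in BG, replicate by replicate. The BG arrays were tight and all BF arrays lay above them by at least 0.90. Slc30a2 (probe set 1427339_at), the zinc exporter ZnT2, was 2.87-fold higher (1.52 ± 0.28, adjusted p = 0.00149). Slc30a2 read 9.53, 8.12, 9.17, 8.50 and 8.25 in BF replicates 1 to 5 and 7.80, 7.16, 7.13, 7.02 and 6.87 in BG replicates 1 to 5. BG replicate 1, the highest ground mouse, came within 0.32 of the lowest flown mouse. Tbc1d1 (probe set 1419446_at), a Rab GTPase-activating protein that gates GLUT4 vesicles in muscle, was 2.72-fold higher (1.44 ± 0.20, adjusted p = 0.000157), and its other 2 probe sets rose by 1.27 and 1.15. Tbc1d1 values were 5.56, 4.80, 6.06, 6.35 and 5.83 in BF and 4.55, 4.31, 4.22, 4.37 and 3.92 in BG, in order of replicate. This probe set read low throughout, and the groups did not overlap.

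Chac1 (probe set 1451382_at) encodes a glutathione-degrading enzyme that is a classical target of the stress factor ATF4. Chac1 stood at 11.11, 10.66, 11.35, 11.16 and 11.58 in BF and at 9.82, 10.14, 9.94, 10.46 and 8.44 in BG, replicate by replicate. It was 2.66-fold higher in flown mice (1.41 ± 0.29, adjusted p = 0.00356). BG replicate 5 was the lowest array, and without it the increase was 1.08. Tmem140 (probe set 1424354_at), a membrane protein, was 2.94-fold higher (1.56 ± 0.19, adjusted p = 2.86e-05). Tmem140 read 10.46, 9.86, 10.77, 10.54 and 10.22 in BF replicates 1 to 5 and 9.25, 8.65, 8.89, 9.08 and 8.20 in BG replicates 1 to 5. It was the only member of its list of 28 interferon-responsive genes to pass.

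Fewer genes fell by this measure: only 6 called genes that were lower in BF had arrays without overlap. Vcan (probe set 1427256_at), the matrix proteoglycan versican, fell 2.49-fold (-1.32 ± 0.21, adjusted p = 0.000516). Vcan values were 5.60, 5.22, 5.74, 5.71 and 5.60 in BF and 7.68, 6.57, 6.87, 6.23 and 7.10 in BG, in order of replicate. The flown mice clustered near the bottom of the range while the ground mice spread over 1.45. Manf (probe set 1428112_at), a secreted protein of the stressed endoplasmic reticulum, fell 2.24-fold (-1.16 ± 0.16, adjusted p = 0.000165). Manf stood at 8.34, 8.71, 8.54, 8.54 and 8.42 in BF and at 9.62, 9.22, 10.17, 9.64 and 9.72 in BG, replicate by replicate. Both groups were compact and 0.51 apart. Crem (probe set 1449037_at), a transcription factor of the cAMP response, fell 2.23-fold (-1.15 ± 0.23, adjusted p = 0.00281). Crem read 6.65, 7.24, 6.78, 7.05 and 7.17 in BF replicates 1 to 5 and 8.85, 7.86, 7.96, 8.17 and 7.82 in BG replicates 1 to 5. Its BG values were led by replicate 1.

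Casq2 (probe set 1422529_s_at) encodes calsequestrin 2, the calcium-binding store protein of slow and cardiac fibres. Casq2 values were 7.76, 8.95, 8.08, 8.65 and 8.72 in BF and 9.33, 9.08, 10.0001, 9.59 and 9.87 in BG, in order of replicate. It fell 2.21-fold (-1.14 ± 0.21, adjusted p = 0.00189), and the closest arrays of the groups were 0.13 apart. FC mice averaged 8.60, near the flown mice. Serpinh1 (probe set 1450843_a_at), the collagen chaperone HSP47 of the endoplasmic reticulum, fell 2.15-fold (-1.11 ± 0.22, adjusted p = 0.00309). Serpinh1 stood at 8.70, 8.33, 8.17, 8.21 and 8.91 in BF and at 9.66, 9.09, 9.62, 9.0 and 10.47 in BG, replicate by replicate. BG replicate 5 was the highest array, and without it the change was -0.88. Cox19 (probe set 1434923_at), a factor for building cytochrome c oxidase, fell 2.01-fold (-1.01 ± 0.13, adjusted p = 4.86e-05). Cox19 read 9.14, 9.53, 9.35, 9.45 and 9.55 in BF replicates 1 to 5 and 10.32, 10.66, 10.45, 10.49 and 10.14 in BG replicates 1 to 5. Both groups kept within a narrow band and did not meet. The largest decrease of any probe set, -1.74, belonged to one that names no gene in the annotation used here.

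**Figure D2:**
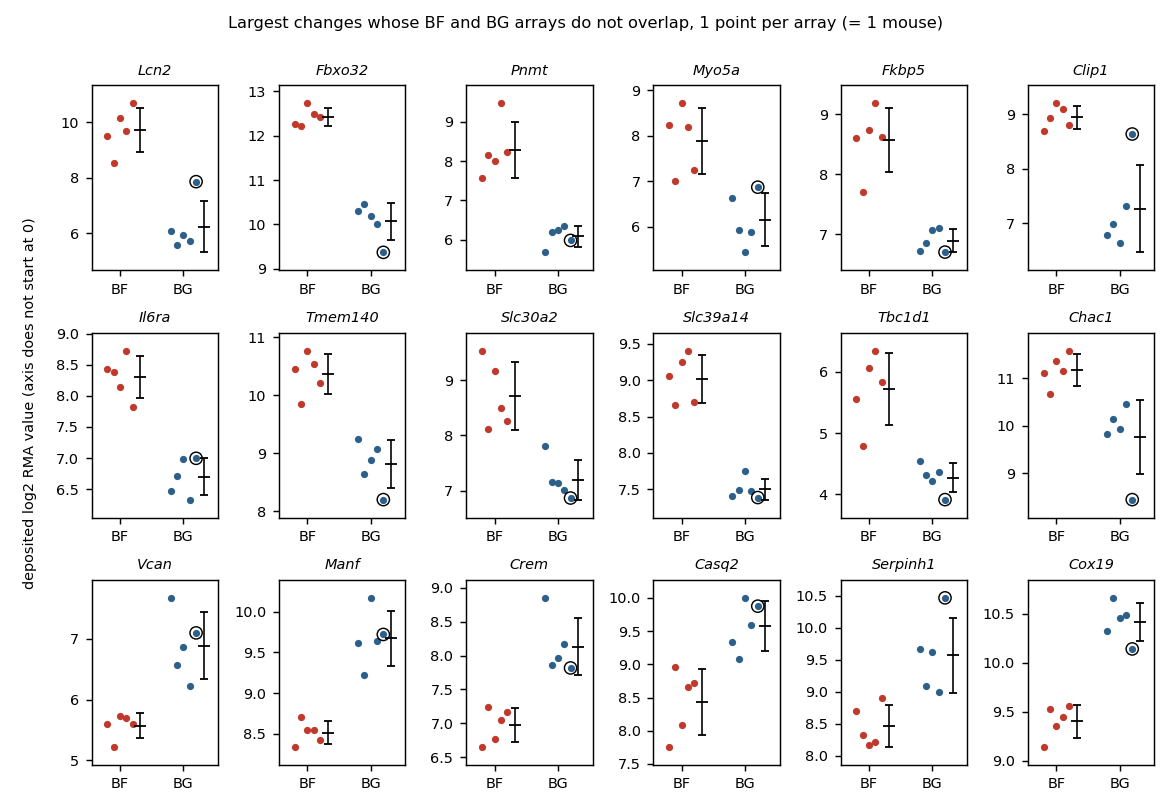
Deposited log2 RMA values in each BF (red) and BG (blue) array for the 12 largest increases and the 6 decreases among called genes whose arrays did not overlap. Bars give mean and SD of 5 mice, vertical axes do not start at 0, points run from replicate 1 to 5, and the black ring marks BG replicate 5, which stands apart upwards for Lcn2, Clip1 and Serpinh1 and downwards for Fbxo32 and Chac1.

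**Figure D3:**
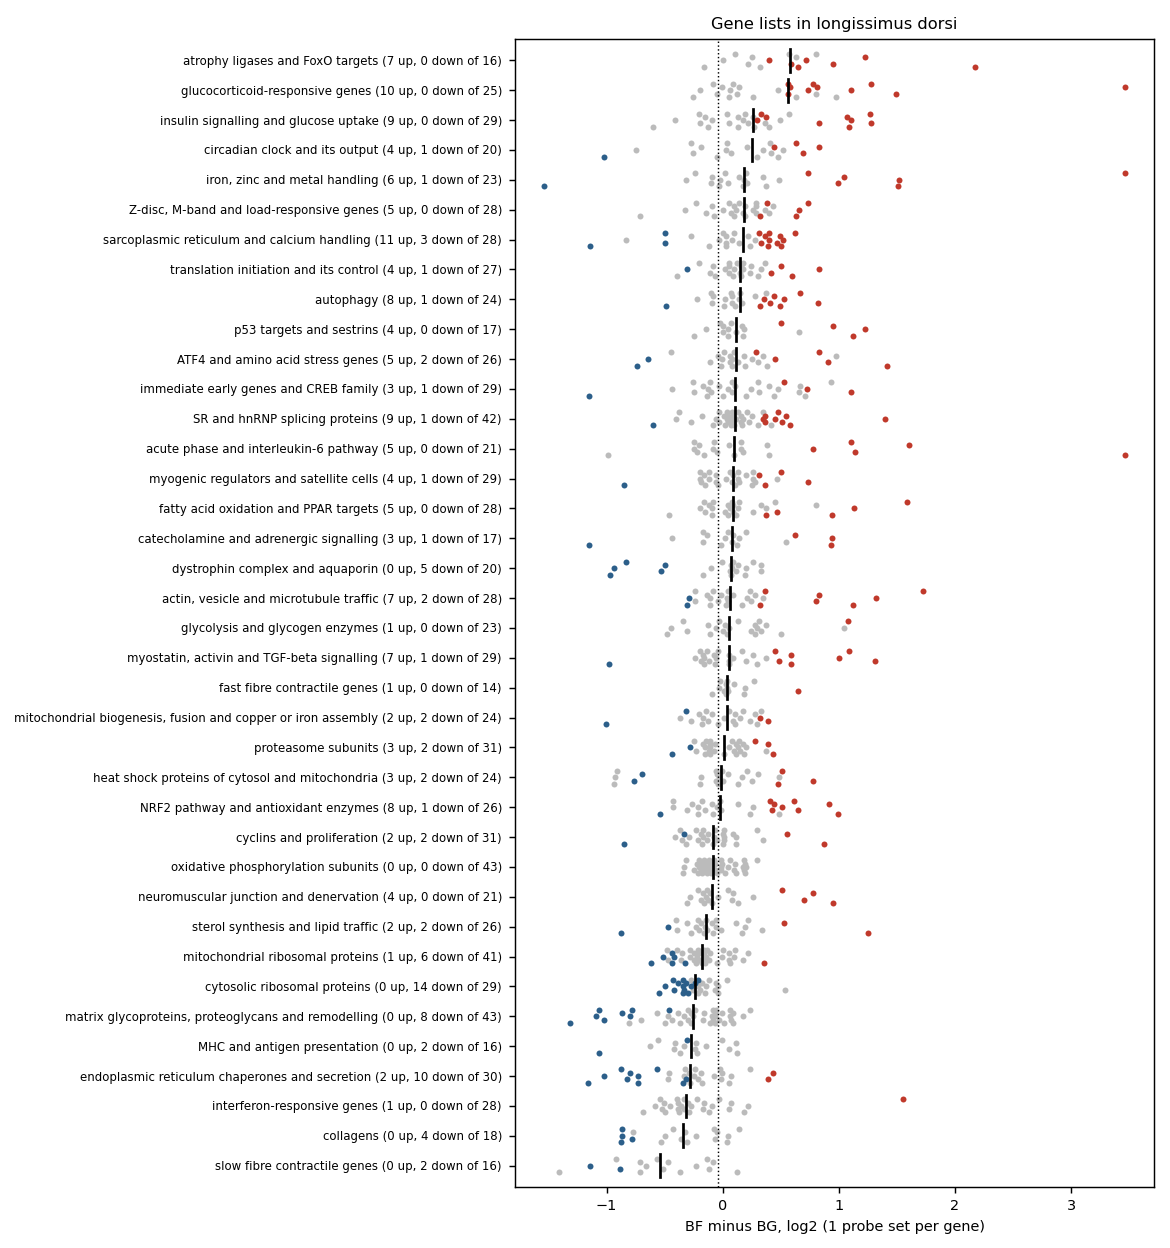
Change in BF relative to BG (log2) of each measured gene of 38 lists, 1 probe set per gene, with red for genes that rose, blue for genes that fell, grey for genes that did not pass, a black bar at the list median and a dotted line at the median of all genes (-0.04). Lists are ordered by their median, from atrophy and FoxO genes (0.58) at the top to slow fibre genes (-0.54) at the bottom.

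Protein breakdown came first among the functional groups. Of 16 measured genes on a list of atrophy ligases and FoxO targets, 7 rose and 0 fell, with a median change of 0.58. Without BG replicate 5 the counts were 8 higher and 0 lower, with a median of 0.45. For comparison, with 1 probe set per gene 10.5% of all 12393 genes passed, 6.06% higher and 4.48% lower, and the median over them was -0.04. Beside Fbxo32, the list was led by Gadd45a, a DNA-damage and denervation gene (0.95 ± 0.13, adjusted p = 0.000157), Foxo3, a FoxO factor itself (0.72 ± 0.11, adjusted p = 0.000275), and Cdkn1a, the cell-cycle inhibitor p21 (1.23 ± 0.24, adjusted p = 0.00252). Foxo3 values were 8.57, 8.58, 8.81, 8.73 and 8.27 in BF and 7.80, 7.84, 8.12, 7.72 and 7.91 in BG, in order of replicate. No flown mouse reached down to the ground values of Foxo3. The mean level of the list was 9.92 to 10.17 in the BF arrays, 9.39 to 9.58 in the BG arrays and 9.51 to 9.83 in the FC arrays. Called genes beside the list included Ube4a, a ubiquitin chain elongation factor, at 1.15 (adjusted p = 8.27e-05), and Nedd4l, a ubiquitin ligase of membrane channels, at 1.01 (adjusted p = 0.00370).

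Autophagy genes moved mostly up: 8 of 24 rose and 1 fell, with a median of 0.15, and 9 rose and 2 fell without BG replicate 5 (median 0.19). Ulk1, the kinase that starts autophagosome formation, rose by 0.82 ± 0.09 (adjusted p = 9.31e-06). Ulk1 stood at 10.18, 10.29, 9.95, 10.23 and 10.07 in BF and at 9.48, 9.36, 9.41, 9.17 and 9.22 in BG, replicate by replicate. Its groups were apart by 0.47. Gabarapl1, which coats autophagosomes, rose by 0.67 ± 0.12 (adjusted p = 0.00115), Atg13, a partner of Ulk1, by 0.35 ± 0.08 (adjusted p = 0.00843), and Tfeb, a transcription factor of lysosomal genes, by 0.50 ± 0.12 (adjusted p = 0.00971). The subunits of the proteasome itself had no common direction, with 3 of 31 higher, 2 lower and a median of 0.01, and 5 higher and 4 lower without BG replicate 5. Psmd7 (0.43 ± 0.09) and Psmd11 (0.39 ± 0.08), lid subunits of the regulatory particle, were the clearest of those that rose.

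Growth restraint and p53 genes formed a smaller group in which 4 of 17 rose and 0 fell (median 0.12). Sesn1, a stress protein that holds back mTORC1, was called on all 3 of its probe sets, with increases of 1.12, 1.13 and 1.16. Sesn1 read 9.27, 9.80, 10.35, 10.52 and 9.95 in BF replicates 1 to 5 and 8.41, 8.52, 8.59, 9.44 and 9.10 in BG replicates 1 to 5. The values of Sesn1 are those of its largest change, on which the groups overlapped, whereas they did not on the probe set that rose by 1.12. Eif4ebp1, the mTORC1-controlled repressor of cap-dependent translation, rose by 1.25 ± 0.15 (adjusted p = 2.81e-05), and all 3 of its probe sets passed. Rbl2, a pocket protein that holds cells out of the cycle, rose by 1.02 ± 0.21 (adjusted p = 0.00398). Of 31 cyclin and proliferation genes, 2 rose and 2 fell.

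Genes that respond to glucocorticoids rose wherever they passed. On that list 10 of 25 rose and 0 fell, with a median of 0.56, and the mean level was 10.08 to 10.39 in BF against 9.42 to 10.04 in BG. Without BG replicate 5 the count was unchanged at 10 and the median was 0.34. After Lcn2 and Fkbp5 came Klf9 (0.58 ± 0.09, adjusted p = 0.000333), a zinc finger factor, and Cebpb (0.77 ± 0.13, adjusted p = 0.000797), which shares targets with the glucocorticoid receptor in muscle. Cebpb was called on its other probe set (1.12), as was its relative Cebpd (1.10, adjusted p = 0.0169). For Cebpd, BG replicate 5 stood 1.03 below the next BG array, and without it the change was 0.78, under 2-fold. Pik3r1, the regulatory subunit of PI3 kinase, rose by 1.28 ± 0.27 (adjusted p = 0.00481). Pik3r1 values were 9.70, 9.39, 9.76, 8.88 and 8.86 in BF and 7.37, 7.76, 8.14, 7.69 and 9.21 in BG, in order of replicate. The Pik3r1 arrays of the groups overlapped, and without BG replicate 5 its rise was 1.57.

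On a list of 21 acute-phase and interleukin-6 genes, 5 rose and 0 fell (median 0.10, and 0.23 without BG replicate 5): Lcn2, Il6ra, Cebpb, Cebpd and Lrg1. Lrg1, a secreted glycoprotein of the acute phase, rose by 1.14 ± 0.23 (adjusted p = 0.00310). Lrg1 stood at 8.57, 8.18, 8.31, 8.87 and 8.92 in BF and at 6.48, 7.30, 7.97, 7.22 and 8.16 in BG, replicate by replicate. All flown mice were above all ground mice. Of 12 neutrophil markers, a cell type known to store lipocalin 2, Lcn2 was the only one to pass, and the median of that list was -0.08. Of 17 genes of catecholamine signalling, 3 rose and 1, Crem, fell, with 1 higher without BG replicate 3 and 4 without BG replicate 5. Prkar2a, a regulatory subunit of protein kinase A, rose by 0.94 ± 0.20 (adjusted p = 0.00410).

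Insulin signalling and glucose uptake gave only increases among genes that passed, with 9 of 29 genes higher, 0 lower and a median of 0.26, and 12 higher and 1 lower without BG replicate 5. The mean level of this list was 9.22 in BF, 8.90 in BG and 9.12 in FC. Cdkal1, a tRNA-modifying enzyme linked to insulin secretion, rose by 1.07 ± 0.14 (adjusted p = 0.000118). Cdkal1 read 9.9964, 9.62, 10.32, 9.99 and 9.71 in BF replicates 1 to 5 and 9.19, 8.99, 8.54, 8.90 and 8.67 in BG replicates 1 to 5. Gsk3b, the kinase that inhibits glycogen synthase, rose by 1.09 ± 0.16 (adjusted p = 0.000275). Gsk3b values were 9.46, 9.44, 9.29, 9.12 and 9.22 in BF and 8.14, 8.31, 7.95, 7.74 and 8.93 in BG, in order of replicate. Neither gene had overlapping arrays. Prkcd, protein kinase C delta, rose by 1.11 ± 0.23 (adjusted p = 0.00369), with overlapping arrays. Ide, the protease that degrades insulin, was called on 1 of 4 probe sets (1.02, adjusted p = 0.00400), and none of the other 3 passed. Among 23 genes of glycolysis and glycogen, Slc16a3, the lactate exporter MCT4, was the only one to pass (1.08 ± 0.25, adjusted p = 0.0100).

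Fuel genes of fat followed in part. Of 28 genes of fatty acid oxidation and PPAR targets, 5 rose and 0 fell (median 0.09). Leaving out single arrays left between 2 (without BF replicate 4, BF replicate 5 or BG replicate 1) and 7 higher, and the median without BG replicate 5 was 0.03. Acot2, a mitochondrial thioesterase that frees fatty acids from coenzyme A, rose by 1.59 ± 0.25 (adjusted p = 0.000416). Acot2 stood at 7.63, 7.96, 8.73, 8.44 and 8.36 in BF and at 6.6, 7.65, 6.64, 6.16 and 6.12 in BG, replicate by replicate. The Acot2 arrays overlapped although the means were 3.01-fold apart. Acss1, which makes acetyl-CoA from acetate in mitochondria, rose by 1.13 ± 0.23 (adjusted p = 0.00346) on 1 of its 3 probe sets. Plin5, the lipid droplet protein of oxidative tissue, rose by 1.32 ± 0.38 (adjusted p = 0.0304), a pass lost in 4 of the 10 fits that leave out 1 array, with an adjusted p up to 0.0896 without BG replicate 1. For Plin5, BG replicate 5 stood 1.16 below the next BG array, and without it the change was 0.89, under 2-fold. Npc1, which exports cholesterol from lysosomes, rose by 1.25 ± 0.13 (adjusted p = 7.88e-06). Npc1 read 9.16, 8.88, 9.39, 9.0 and 8.82 in BF replicates 1 to 5 and 7.79, 7.80, 7.77, 7.84 and 7.79 in BG replicates 1 to 5. Npc1 showed no overlap, while only 2 of 26 sterol and lipid traffic genes rose and 2 fell (1 without BG replicate 5). Serinc3, a membrane protein that carries serine into lipids, was called on 1 of 5 probe sets (1.13, adjusted p = 0.0104).

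None of the 43 subunits of oxidative phosphorylation passed (median -0.08, range -0.34 to 0.30). That result depended on 1 array: without BG replicate 5, 8 of the 43 were lower in BF and the median was -0.17. The 41 mitochondrial ribosomal proteins gave 1 higher and 6 lower (median -0.18), and 1 higher and 16 lower without that array (median -0.28). Mrps16 (-0.52 ± 0.10, adjusted p = 0.00299) and Mrpl20 (-0.62 ± 0.14, adjusted p = 0.00790), of the small and large subunit, fell most clearly. Of 24 genes of mitochondrial biogenesis and assembly 2 rose and 2 fell, Cox19 among the latter, and 4 fell without BG replicate 5.

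Cytosolic ribosomal proteins fell in small steps. Of 29 measured, 14 fell and 0 rose, against 4.48% of all genes lower, and only 2 of the 29 were above 0. The median was -0.24 and the lowest value -0.55. Rps19, a protein of the small subunit, fell by 0.55 ± 0.09 (adjusted p = 0.000421). Rps19 values were 11.34, 11.59, 11.43, 11.42 and 11.25 in BF and 12.02, 12.01, 11.84, 11.86 and 12.06 in BG, in order of replicate. The Rps19 arrays of the groups did not overlap and were 0.25 apart at the closest. Rpl11 (-0.43 ± 0.08, adjusted p = 0.00195), Rpsa (-0.42 ± 0.08, adjusted p = 0.00283) and Rps15 (-0.34 ± 0.08, adjusted p = 0.00625) followed. The mean level of the list was 11.42 to 11.57 in BF, 11.57 to 11.83 in BG and 11.48 to 11.58 in FC. Leaving out single arrays left between 9 (without BF replicate 4, BF replicate 5 or BG replicate 1) and 14 of the genes lower. Without BG replicate 5 the counts were 14 lower and 1 higher, with a median of -0.23. Ribosomal protein genes have many near-identical processed copies in the genome, and probes cannot tell transcripts of such copies apart.

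Of 27 genes of translation initiation and its control 4 rose and 1 fell (median 0.15), with 9 higher and 2 lower without BG replicate 5 and 2 higher without any of 5 other arrays. Those that rose were not of 1 kind. Eif3a, the scaffold of initiation factor 3, rose by 0.50 ± 0.07 (adjusted p = 0.000275), and Eif3d, of the same factor, by 0.41 ± 0.12 (adjusted p = 0.0334). The other two repress initiation: Eif4ebp1, described above, and its relative Eif4ebp2 (0.60 ± 0.17, adjusted p = 0.0287), a pass lost in 8 of the 10 fits that leave out 1 array, with an adjusted p up to 0.0798 without BG replicate 4. Eif3i, also of initiation factor 3, fell by 0.30 ± 0.07 (adjusted p = 0.0124). The mean level of the initiation list was 10.66 in BF, 10.51 in BG and 10.64 in FC. Proteins that bind and splice RNA gave 9 of 42 higher and 1 lower (median 0.11), and 14 higher and 1 lower without BG replicate 5. Their mean level was 9.68 in BF, 9.53 in BG and 9.66 in FC. Cirbp, the cold-inducible RNA-binding protein, rose by 1.40 ± 0.23 (adjusted p = 0.000674). Cirbp stood at 7.67, 7.22, 8.31, 8.15 and 7.69 in BF and at 6.0, 6.30, 6.24, 6.10 and 7.44 in BG, replicate by replicate. BG replicate 5 was 1.14 above the next ground mouse and above 1 flown mouse, and without it the rise was 1.65. Ncl, nucleolin, was called on 1 of 4 probe sets (1.07, adjusted p = 0.000545), and 3 passed the adjusted p. Hnrnpk rose by 0.45 ± 0.09 (adjusted p = 0.00387) and Hnrnpc fell by 0.60 ± 0.10 (adjusted p = 0.000839), both being proteins that package nuclear transcripts. Syncrip, a relative of these, rose by 1.0 ± 0.16 (adjusted p = 0.000436), and Norad, a long non-coding RNA that holds Pumilio proteins, by 1.04 ± 0.13 (adjusted p = 8.24e-05).

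Chaperones of the endoplasmic reticulum, where secreted and membrane proteins are folded, fell more often than they rose. Of 30 measured genes 10 fell and 2 rose, 5 were above 0, and the median was -0.28. Leaving out single arrays left 8 to 10 lower and 0 (without BF replicate 3, BG replicate 1 or BG replicate 2) to 2 higher. The mean level of the list was 9.16 to 9.20 in the 5 BF arrays, 9.37 to 9.52 in BG replicates 1 to 4, 9.73 in BG replicate 5, and 9.24 to 9.34 in the FC arrays. The BF and BG ranges did not meet, and the flown mice were closely alike. Without BG replicate 5 the count was 9 lower and 2 higher, with a median of -0.22.

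Several of these genes share a promoter element, the endoplasmic reticulum stress response element, through which ATF6 and NF-Y are known to act in the unfolded protein response. It was searched as CCAAT, 9 free bases and CCACG on both strands in RefSeq windows of 250 bases before to 50 after each transcription start (GRCm38.p6). It was present in 0.119% of all 32851 windows and in 7 of 25 windows of the list (30 genes, 25 matched). Among the 8 matched genes that fell it was found in 5, and among the 15 matched genes that did not pass in 2, Canx and Dnajc3. A match describes the letters only. The 5 promoters of genes that fell are shown because they carry the shared letters, as the 250 bases before the start, 5′ to 3′ along the gene's own strand, with the element in capitals.
Hspa5, chr2:34771840-34772089, plus strand: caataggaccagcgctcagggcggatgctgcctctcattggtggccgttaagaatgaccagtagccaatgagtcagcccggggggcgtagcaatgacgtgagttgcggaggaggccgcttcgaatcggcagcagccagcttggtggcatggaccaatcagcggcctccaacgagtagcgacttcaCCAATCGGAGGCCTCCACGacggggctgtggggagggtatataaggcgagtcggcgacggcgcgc
Hsp90b1, chr10:86705445-86705694, minus strand: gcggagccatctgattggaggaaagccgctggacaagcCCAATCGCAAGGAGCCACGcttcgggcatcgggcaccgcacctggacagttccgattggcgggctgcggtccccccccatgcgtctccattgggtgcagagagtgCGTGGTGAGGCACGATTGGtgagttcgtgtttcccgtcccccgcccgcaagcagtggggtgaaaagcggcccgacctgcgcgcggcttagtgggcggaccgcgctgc
Pdia6, chr12:17266339-17266588, plus strand: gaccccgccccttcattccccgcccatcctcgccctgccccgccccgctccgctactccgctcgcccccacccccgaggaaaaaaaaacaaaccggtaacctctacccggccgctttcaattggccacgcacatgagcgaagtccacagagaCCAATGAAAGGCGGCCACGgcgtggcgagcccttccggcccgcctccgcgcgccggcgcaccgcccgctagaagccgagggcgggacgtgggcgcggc
Creld2, chr15:88819396-88819645, plus strand: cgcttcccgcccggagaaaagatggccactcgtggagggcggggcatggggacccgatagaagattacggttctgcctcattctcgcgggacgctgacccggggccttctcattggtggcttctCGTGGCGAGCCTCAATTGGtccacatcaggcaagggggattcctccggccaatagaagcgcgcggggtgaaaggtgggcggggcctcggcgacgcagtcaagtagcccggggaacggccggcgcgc
Calr, chr8:84846932-84847181, minus strand: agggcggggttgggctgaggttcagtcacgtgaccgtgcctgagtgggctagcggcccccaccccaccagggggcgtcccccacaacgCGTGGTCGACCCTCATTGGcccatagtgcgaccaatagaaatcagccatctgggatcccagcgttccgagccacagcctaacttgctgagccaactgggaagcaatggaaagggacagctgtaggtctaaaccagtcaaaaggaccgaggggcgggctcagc

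The first capital lies 65 bases before the start in Hspa5, 98 in Pdia6, 126 in Creld2 and 162 in Calr, and Hsp90b1 holds 2 copies, at 212 and 107. Hspa5, the main chaperone BiP that senses unfolded proteins, fell by 0.73 ± 0.12 (adjusted p = 0.000854). Hspa5 read 10.88, 10.96, 10.71, 10.80 and 10.65 in BF replicates 1 to 5 and 11.38, 11.36, 11.75, 11.34 and 11.82 in BG replicates 1 to 5. Hsp90b1, the chaperone GRP94, fell by 0.82 ± 0.17 (adjusted p = 0.00425). Hsp90b1 values were 9.65, 9.85, 9.95, 9.83 and 9.94 in BF and 10.55, 10.48, 10.55, 10.81 and 10.96 in BG, in order of replicate. In both genes every flown mouse was below every ground mouse. Pdia6, a protein disulphide isomerase, fell by 0.80 ± 0.11 (adjusted p = 0.000138). Pdia6 stood at 9.04, 8.87, 9.02, 8.99 and 9.07 in BF and at 9.95, 9.69, 9.84, 9.54 and 9.93 in BG, replicate by replicate. The Pdia6 gap between groups, 0.47, was wide against a spread of 0.08 (SD) in BF.

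Creld2, a secreted stress protein, fell by 0.73 ± 0.15 (adjusted p = 0.00299), and 1 flown mouse reached the ground range. Creld2 read 6.22, 6.6, 6.12, 6.07 and 6.25 in BF replicates 1 to 5 and 7.04, 6.75, 7.06, 6.53 and 7.55 in BG replicates 1 to 5. Calr, the lectin chaperone calreticulin, fell by 0.35 ± 0.10 (adjusted p = 0.0384). Calr values were 11.12, 10.94, 10.85, 11.04 and 11.20 in BF and 11.24, 11.26, 11.41, 11.31 and 11.65 in BG, in order of replicate. Here too the groups did not meet, by 0.04. Sec61b, of the channel through which proteins enter the reticulum, had no match in this window and had the smallest adjusted p of the list, 1.88e-05. Sec61b stood at 8.90, 9.18, 8.83, 8.97 and 8.87 in BF and at 9.86, 9.88, 9.75, 9.80 and 9.84 in BG, replicate by replicate. It fell by 0.88 ± 0.10, with a gap of 0.57. Pdia4 (-0.57 ± 0.11) and Ssr2 (-0.32 ± 0.10) completed the genes that fell, with Manf and Serpinh1 above. Herpud1 (0.43 ± 0.12), of reticulum-associated degradation, and Dnajb9 (0.39 ± 0.12), a cofactor of BiP, were the 2 that rose. Of 24 heat shock proteins of cytosol and mitochondria 3 rose and 2 fell (median -0.02).

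**Figure D4:**
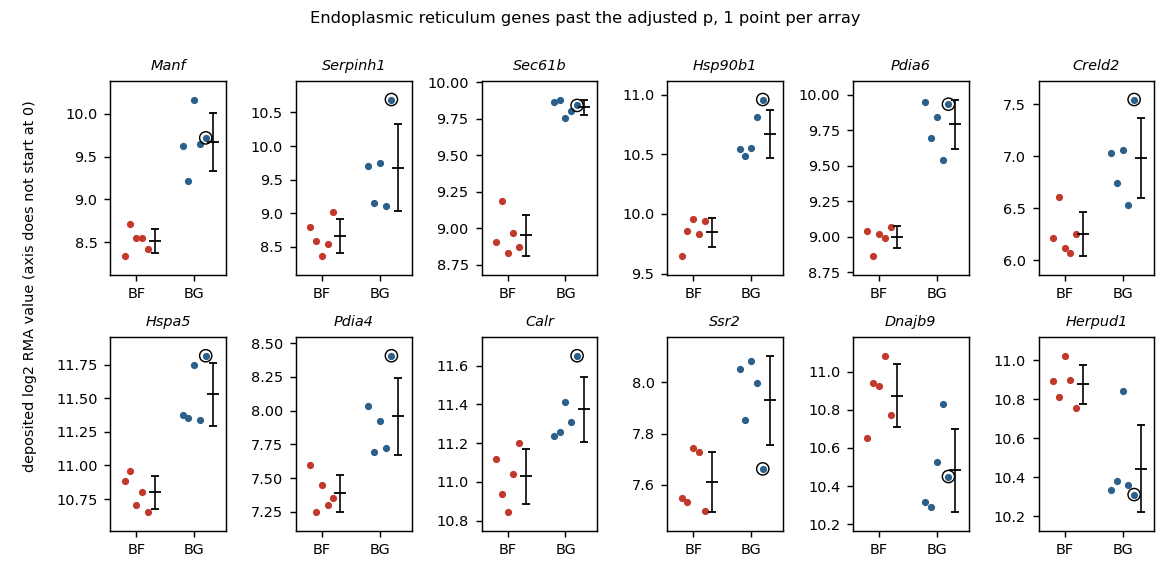
Deposited log2 RMA values in each BF (red) and BG (blue) array of the 12 endoplasmic reticulum genes past the adjusted p, with mean and SD of 5 mice, axes that do not start at 0, points in order of replicate, and BG replicate 5 ringed. In the 10 genes that fell, the flown mice lie below most or all ground mice, whereas Dnajb9 and Herpud1, at the lower right, lie higher.

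The ATF4 and amino acid stress list was mixed, with 5 of 26 higher and 2 lower (median 0.11), and 8 higher and 3 lower without BG replicate 5 (median 0.21). Ddit3, the stress factor CHOP, fell by 0.74 ± 0.11 (adjusted p = 0.000280) while Chac1 rose. Ddit3 read 7.38, 7.64, 7.27, 7.34 and 7.58 in BF replicates 1 to 5 and 8.16, 8.0, 8.25, 8.0 and 8.49 in BG replicates 1 to 5. The Ddit3 arrays were without overlap. Slc7a2, a carrier of cationic amino acids, rose by 1.41 ± 0.24 (adjusted p = 0.000807). The Chac1 promoter holds the C/EBP-ATF element TGATGCAA, on the opposite strand as TTGCATCA and 193 bases before the start, and it is shown because Chac1 had the largest change of this list.
Chac1, chr2:119350992-119351241, plus strand: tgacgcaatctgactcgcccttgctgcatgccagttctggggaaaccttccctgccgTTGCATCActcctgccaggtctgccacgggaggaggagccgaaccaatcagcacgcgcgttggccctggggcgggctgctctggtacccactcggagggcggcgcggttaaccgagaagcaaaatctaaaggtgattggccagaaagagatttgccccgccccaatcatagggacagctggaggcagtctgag

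That element was found in 0.895% of all windows and in 7 of 26 windows of the list, among them Aars and Chac1, which rose, and Nupr1, which fell. Aars, alanyl-tRNA synthetase, rose by 0.45 ± 0.10 (adjusted p = 0.00603), and Nupr1, a small stress protein, fell by 0.65 ± 0.17 (adjusted p = 0.0205). Searched in the same windows, the FoxO letters TGTTTAC were found in 2 of 59 windows of called genes that were higher (3.39%, Sesn1 and Tmem140), against 3.65% of all windows. On the list of atrophy ligases and FoxO targets they were found in 0 of 16 windows (16 genes, 14 matched). The antioxidant element core TGACNNNGC was found in 7 of those 59 windows (11.9%) and in 12.4% of all windows, and the cAMP response element TGACGTCA in 0 of them and in 1.79% of all windows. The glucocorticoid response element, as a fixed palindrome, was found in 3 windows of all genes, 1 of them of Sgk1 on the glucocorticoid list.

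Among antioxidant genes and the NRF2 pathway 8 of 26 rose and 1 fell, yet the median was -0.02 and 12 were above 0. Without BG replicate 5 the counts were 7 higher and 5 lower. Gclm, a subunit of the enzyme that begins glutathione synthesis, rose by 0.92 ± 0.14 (adjusted p = 0.000353). Gclm values were 9.50, 9.50, 9.54, 9.80 and 9.64 in BF and 9.11, 8.50, 8.70, 8.35 and 8.74 in BG, in order of replicate. Its groups were apart by 0.39. Cat, catalase, rose by 0.65 ± 0.13 (adjusted p = 0.00253), and Gsr, glutathione reductase, by 0.61 ± 0.12 (adjusted p = 0.00301). Both proteins that restrain the pathway were called: Bach1, a repressor at antioxidant elements, at 1.23 ± 0.18 (adjusted p = 0.000191), and Keap1, which targets NRF2 for degradation, at 1.01 ± 0.17 (adjusted p = 0.000660). Bach1 stood at 8.63, 8.09, 8.64, 8.19 and 7.98 in BF and at 6.98, 6.94, 6.96, 6.91 and 7.60 in BG, replicate by replicate. Keap1 read 7.54, 7.41, 7.48, 7.69 and 7.68 in BF replicates 1 to 5 and 6.80, 6.66, 6.19, 6.12 and 6.96 in BG replicates 1 to 5. Neither gene had overlapping arrays, and the second Keap1 probe set rose by 0.42. Prdx4, a peroxiredoxin of the endoplasmic reticulum, was the gene that fell (-0.54 ± 0.15, adjusted p = 0.0262).

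Among 23 genes for iron, zinc and other metals 6 rose and 1 fell (median 0.18), with 8 higher and 1 lower without BG replicate 5 (median 0.17). Slc40a1, ferroportin, the iron exporter of cells, rose by 1.05 ± 0.18 (adjusted p = 0.000947), and Tfrc, the transferrin receptor that takes iron in, fell by 1.54 ± 0.30 (adjusted p = 0.00264). Tfrc values were 10.32, 9.04, 10.30, 9.01 and 8.69 in BF and 11.10, 10.91, 11.30, 11.49 and 10.26 in BG, in order of replicate. All 3 Tfrc probe sets passed in the same direction, and the arrays of the groups overlapped. Slc12a2, the sodium, potassium and chloride cotransporter NKCC1, rose by 1.33 ± 0.23 (adjusted p = 0.00125), and 1.60 without BG replicate 5.

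Few genes of the fast contractile programme passed. Of 14 fast fibre genes 1 rose, Mylk2, a myosin light chain kinase (0.65 ± 0.19, adjusted p = 0.0297), a pass lost in 7 of the 10 fits that leave out 1 array, with an adjusted p up to 0.0798 without BG replicate 4. The 16 slow fibre genes were below 0 in 15 cases, with a median of -0.54, but only Casq2 and Myoz2 (-0.88 ± 0.24, adjusted p = 0.0237) passed, and both fell. Myoz2, a Z-disc protein of slow fibres, had a pass lost in 3 of the 10 fits that leave out 1 array, with an adjusted p up to 0.0724 without BF replicate 3. Their mean level was 9.89 to 11.15 in BF, 10.78 to 11.31 in BG replicates 1 to 4, 11.70 in BG replicate 5 and 9.30 to 11.09 in FC, so that the groups overlapped. Without BG replicate 5 the median was -0.47.

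Of 28 genes of calcium handling by the sarcoplasmic reticulum, 11 rose and 3 fell (median 0.18), with 11 higher and 4 lower without BG replicate 5. The mean level of this list was 10.55 in BF, 10.46 in BG and 10.61 in FC, so that FC mice read above flown mice. Jph1, a junctophilin that ties the reticulum to the surface membrane, rose by 0.62 ± 0.11 (adjusted p = 0.00168). Jph1 stood at 7.74, 7.90, 8.11, 8.18 and 7.89 in BF and at 7.15, 7.29, 7.21, 7.37 and 7.70 in BG, replicate by replicate. Camk2a, a calcium-dependent kinase, rose by 0.52 ± 0.11 (adjusted p = 0.00481), and Ryr1, the calcium release channel, by 0.47 ± 0.10 (adjusted p = 0.00495). Ryr1 read 13.43, 13.29, 13.38, 13.39 and 13.33 in BF replicates 1 to 5 and 12.66, 12.90, 12.95, 12.81 and 13.17 in BG replicates 1 to 5. The Ryr1 arrays were without overlap. Leaving out single arrays left between 8 and 11 genes of the list higher and between 1 (without BG replicate 1) and 4 lower. Of 28 Z-disc, M-band and load-responsive genes 5 rose and 0 fell (median 0.18), with 8 higher and 1 lower without BG replicate 5, led by Myom2, a protein of the M-band (0.63 ± 0.13, adjusted p = 0.00434), and Trim54, a ligase of the Z-disc (0.66 ± 0.16, adjusted p = 0.0103).

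Of 20 genes of the dystrophin complex and aquaporins 5 fell and 0 rose, although the median was 0.07. The counts without BG replicate 5 were 5 lower and 2 higher. Aqp4, the water channel of fast fibres, fell by 0.97 ± 0.18 (adjusted p = 0.00211). Aqp4 values were 8.20, 8.59, 8.55, 7.96 and 7.97 in BF and 8.87, 9.22, 9.34, 9.32 and 9.38 in BG, in order of replicate. The Aqp4 arrays were without overlap. Sgcd, a sarcoglycan, fell by 0.53 ± 0.11 (adjusted p = 0.00532), and Cav3, the caveolin of muscle, fell by 0.50 ± 0.11 (adjusted p = 0.00795). Of 21 genes of the neuromuscular junction and denervation 4 rose and 0 fell (median -0.09), but without BF replicate 3 or BG replicate 2 only 1 did. Gadd45a came first. The others were Myh8, perinatal myosin (0.51 ± 0.15), Musk, the receptor kinase of the synapse (0.70 ± 0.20), and Ache, acetylcholinesterase (0.78 ± 0.23), whose passes were lost in 5, 5 and 6 of the 10 fits that leave out 1 array.

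Of 29 myogenic regulators 4 rose and 1 fell (median 0.09), with 2 higher without BF replicate 3 and 7 without BG replicate 5. Myf6, the myogenic factor MRF4 of mature fibres, rose by 0.74 ± 0.16 (adjusted p = 0.00453). Myostatin, activin and TGF-beta signalling gave 7 of 29 higher and 1 lower (median 0.05, and 0.09 without BG replicate 5). Acvr1b, the activin receptor ALK4, rose by 1.31 ± 0.19 (adjusted p = 0.000185). Acvr1b stood at 10.59, 10.29, 10.84, 10.97 and 10.67 in BF and at 8.91, 9.38, 9.87, 9.52 and 9.11 in BG, replicate by replicate. Its groups were apart by 0.42, although its second probe set read 0.06. The intracellular brakes Smad6 (1.0 ± 0.14, adjusted p = 0.000157), Smad7 (0.48 ± 0.09, adjusted p = 0.00156) and Tgif1 (1.09 ± 0.17, adjusted p = 0.000516) rose as well. Fstl1, a secreted follistatin-like protein, was the one that fell (-1.10 ± 0.26, adjusted p = 0.00907).

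Of 28 genes of actin, vesicle and microtubule traffic 7 rose and 2 fell (median 0.07, and 0.12 without BG replicate 5). Beside Myo5a and Clip1 stood Tacc2, a microtubule adaptor (1.12 ± 0.14, adjusted p = 3.48e-05), Net1, an exchange factor for RhoA (1.32 ± 0.25, adjusted p = 0.00179), and Tns1, which links integrins to actin (1.07 ± 0.15, adjusted p = 0.000146). Tacc2 read 13.10, 12.81, 13.11, 13.29 and 13.18 in BF replicates 1 to 5 and 11.77, 12.31, 12.27, 11.84 and 11.69 in BG replicates 1 to 5. The Tacc2 groups did not overlap. Synj2, a phosphoinositide phosphatase of vesicle recycling, was called on 1 of 6 probe sets (1.14 ± 0.17, adjusted p = 0.000338), while the other 5 read from -0.10 to 0.28 and did not pass.

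Clock genes gave 4 of 20 higher and 1 lower (median 0.25). Their mean level was 8.26 to 8.36 in BF, 7.96 to 8.37 in BG and 8.52 to 8.75 in FC. Every FC array thus lay above all BF and BG arrays. Cry2, a repressor of the core loop, rose by 0.83 ± 0.15 (adjusted p = 0.00131), and Csnk1e, a clock kinase, by 0.69 ± 0.12 (adjusted p = 0.00123). Nr1d1, the repressor REV-ERB alpha, fell by 1.02 ± 0.27 (adjusted p = 0.0205), a pass lost in 3 of the 10 fits that leave out 1 array, with an adjusted p up to 0.0597 without BF replicate 4. Nr1d1 values were 6.52, 6.15, 6.70, 6.15 and 7.26 in BF and 7.55, 8.07, 6.87, 7.14 and 8.24 in BG, in order of replicate. The part of the hour of sampling in these values was not tested. Of 29 immediate early and CREB family genes 3 rose and 1 fell, with 5 higher without BF replicate 1: Jun, of the AP-1 factor, rose by 1.10 ± 0.19 (adjusted p = 0.000957) and Crebbp, a coactivator of CREB, by 0.52 ± 0.08 (adjusted p = 0.000507). Creb1 was called lower on 1 of 4 probe sets (-1.23 ± 0.33, adjusted p = 0.0211), a pass lost in 5 of the 10 fits that leave out 1 array, with an adjusted p up to 0.0607 without BG replicate 3, and 2 of its others read above 0.

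Further called genes that rose were Nfic (1.32, adjusted p = 0.00120) and Arid5b (1.14, adjusted p = 0.000333), both DNA-binding factors, and Fzd4, a Wnt receptor (1.03, adjusted p = 0.00288). The rest were Tmem37, a calcium channel subunit (1.09, adjusted p = 0.00615), Lrrc58 (1.15, adjusted p = 0.000862), 6430548M08Rik (1.21, adjusted p = 0.000138) and Cd27, a lymphocyte receptor (1.30, adjusted p = 0.0382), a pass lost in 6 of the 10 fits that leave out 1 array, with an adjusted p up to 0.112 without BF replicate 4.

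Genes of the extracellular matrix were lower where they passed. Of 43 matrix glycoproteins, proteoglycans and remodelling genes 8 fell and 0 rose, and of 18 collagens 4 fell and 0 rose. The list medians were -0.26 and -0.34. Without BG replicate 5 they were -0.05 and -0.26, with 8 and 1 genes lower. The matrix count was 4 without BF replicate 2, BF replicate 4 or BG replicate 1. Vcan and P4ha1, a collagen prolyl hydroxylase (-0.87 ± 0.15, adjusted p = 0.000797), had the smallest adjusted p of the first list, and Col6a3, of type VI collagen, of the second (-0.88 ± 0.20, adjusted p = 0.00664). P4ha1 stood at 7.86, 7.78, 7.90, 7.95 and 7.76 in BF and at 9.09, 8.46, 8.84, 8.56 and 8.63 in BG, replicate by replicate. The P4ha1 arrays were without overlap. Called genes included Col3a1, fibrillar collagen III (-1.27 ± 0.35, adjusted p = 0.0233), a pass lost in 3 of the 10 fits that leave out 1 array, with an adjusted p up to 0.0665 without BF replicate 2, and Timp1, a metalloproteinase inhibitor (-1.07 ± 0.33, adjusted p = 0.0442), a pass lost in 6 of the 10 fits that leave out 1 array, with an adjusted p up to 0.0970 without BG replicate 1. BG replicate 5 stood 1.77 above the other BG arrays for Timp1, and without it the change was -0.59. Thbs4, a thrombospondin of tendon attachment, was called at -1.09 ± 0.34 (adjusted p = 0.0437), a pass lost in 7 of the 10 fits that leave out 1 array, with an adjusted p up to 0.137 without BG replicate 1. The 17 fibroblast markers gave 4 lower and 0 higher (median -0.36, and -0.21 without BG replicate 5), with mean levels of 8.58 to 9.89 in BF, 9.35 to 9.88 in BG replicates 1 to 4, 10.32 in BG replicate 5 and 9.16 to 10.22 in FC.

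Markers of other cell types were examined because a muscle sample holds blood, connective tissue and immune cells. All 24 macrophage markers were below 0 in BF, with a median of -0.61, but only 3 passed. Their mean level was 6.74 to 8.06 in BF, 7.39 to 7.96 in BG replicates 1 to 4, 9.52 in BG replicate 5 and 6.99 to 7.83 in FC. Without BG replicate 5 the median was -0.26 and 2 genes passed, and without BF replicate 2 only 1 did. Ms4a6d, a membrane protein of myeloid cells, fell by 1.42 ± 0.36 (adjusted p = 0.0148), and read -0.93 without BG replicate 5. Ms4a6d read 6.28, 5.10, 6.08, 5.34 and 5.54 in BF replicates 1 to 5 and 7.41, 6.42, 6.26, 6.32 and 9.04 in BG replicates 1 to 5. The groups overlapped, with BG replicate 5 far above. Ms4a6b, a relative, was at -1.12 ± 0.30 (adjusted p = 0.0206), a pass lost in 1 of the 10 fits that leave out 1 array, with an adjusted p up to 0.0593 without BF replicate 2.

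Other called immune genes were Tnfaip2, a gene induced by tumour necrosis factor (-1.40 ± 0.32, adjusted p = 0.00790), and H2-Aa, an MHC class II chain (-1.06 ± 0.31, adjusted p = 0.0304), a pass lost in 6 of the 10 fits that leave out 1 array, with an adjusted p up to 0.0794 without BF replicate 2. Cpa3, a mast cell protease, was at -1.09 ± 0.35 (adjusted p = 0.0485), a pass lost in 9 of the 10 fits that leave out 1 array, with an adjusted p up to 0.126 without BF replicate 2. BG replicate 5 stood 1.81 above the next BG array for Cpa3, and without it the change was -0.64. Of 9 mast cell markers 2 were lower and 0 higher, with mean levels of 5.41 to 5.83 in BF, 5.72 to 6.15 in BG replicates 1 to 4 and 7.23 in BG replicate 5. Their median was -0.47, and -0.29 without that array. The part of these cells in the changes of the matrix and chaperone genes was not tested. Of 17 endothelial markers 2 rose and 1 fell. Rbp7, a retinoid-binding protein of vessels and fat, was the one that fell (-1.12 ± 0.30, adjusted p = 0.0216), a pass lost in 7 of the 10 fits that leave out 1 array, with an adjusted p up to 0.0645 without BG replicate 1. None of 12 lymphocyte, 11 adipocyte, 10 Schwann cell and 7 erythrocyte markers passed, nor did any of the 12 muscle fibre markers. Of 12 smooth muscle and pericyte markers 1 rose and 1 fell, of 9 tendon markers 1 fell (0 without BG replicate 5), and of 15 keratinocyte markers 1 fell. Genes of antigen presentation gave 0 higher and 2 lower of 16 (median -0.27, and -0.16 without BG replicate 5), and the 28 interferon-responsive genes had a median of -0.31, with Tmem140 alone past the test.

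**Figure D5:**
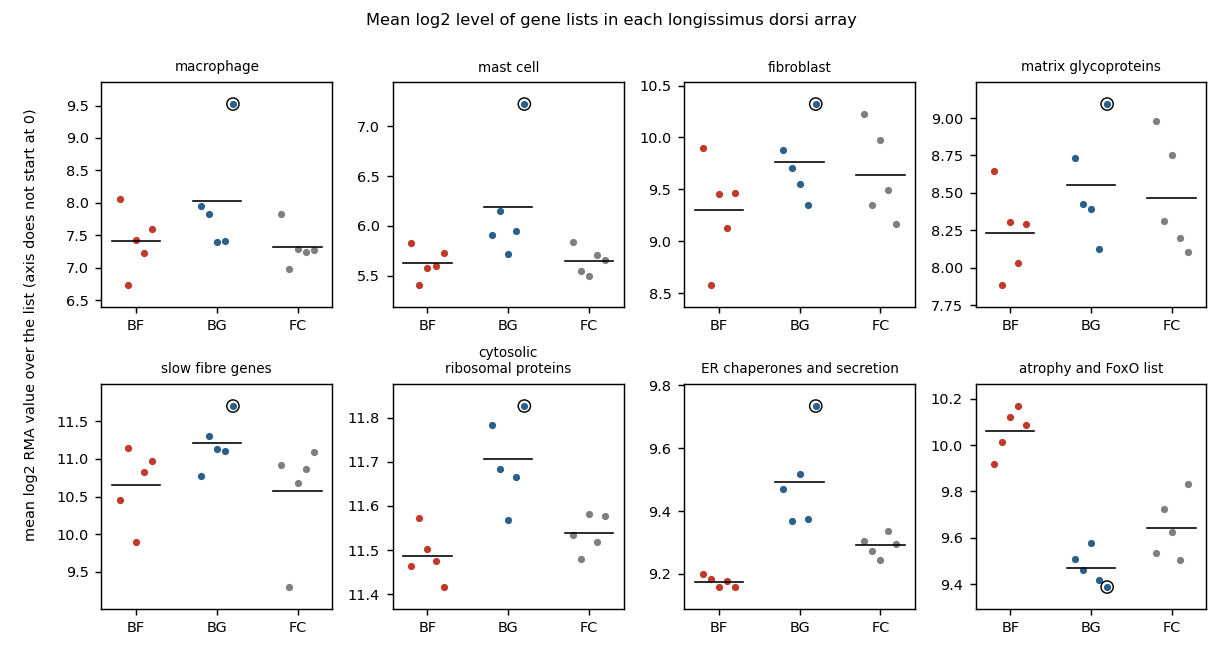
Mean log2 RMA value over 8 gene lists in each *longissimus dorsi* array of BF (red), BG (blue) and FC (grey) mice, with a line at the mean of each group, BG replicate 5 ringed, and axes that do not start at 0. The endoplasmic reticulum and atrophy lists separate BF from BG without overlap, whereas macrophage and mast cell lists are set apart mainly by BG replicate 5.

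Several called genes are represented by more than 1 probe set. Of the 74 genes 28 had a single probe set and 46 had several, of which 28 passed the adjusted p in the same direction on every one. In 10 genes only the called probe set passed. In 6 genes a probe set pointed the other way, and 0 of those passed. Among reference genes, the 2 Actb probe sets, for beta-actin, read 0.24 (adjusted p = 0.388) and 0.52 (adjusted p = 0.0934), and Pcx, pyruvate carboxylase, read 0.38 (adjusted p = 0.132).

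The 5 FC mice, housed conventionally, give the level of the same genes outside the biosatellite cage, and the comparisons with them share the BF or BG arrays used above. FC averaged 10.25 ± 0.62 (SD, n = 5) for Fbxo32, which was 0.18 from BG (adjusted p = 0.714), and 6.84 ± 0.39 for Fkbp5, which was -0.06 from BG (adjusted p = 0.901). For these genes no difference between the ground groups was detected. For others FC lay between BG and BF. Chac1 averaged 10.70 in FC, 0.94 relative to BG (adjusted p = 0.0432), Manf 8.89, -0.78 relative to BG (adjusted p = 0.00636), and Cox19 9.80, -0.61 relative to BG (adjusted p = 0.00581). Clip1 averaged 8.22 in FC, 0.95 relative to BG (adjusted p = 0.0307). Casq2 averaged 8.60 in FC, -0.98 relative to BG (adjusted p = 0.00798), so conventionally housed mice read nearly as low as flown mice. Among the largest changes without overlap, no decrease passed limma's BF against FC comparison. Adjusted p values were 0.0630 (Vcan), 0.0902 (Cox19), 0.131 (Serpinh1), 0.249 (Manf), 0.320 (Crem) and 0.811 (Casq2). Of the increases, Slc30a2 (0.0732), Clip1 (0.157) and Chac1 (0.464) did not pass. Lcn2, Fbxo32, Pnmt, Myo5a, Fkbp5, Il6ra, Tmem140, Slc39a14 and Tbc1d1 passed (adjusted p up to 0.0126, Tbc1d1). For genes that did not pass, flown mice were not shown to differ from FC mice. For Nr1d1, Cirbp and Tfrc the paper lists smaller changes of BF against FC than against BG.

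In tongue, a muscle without a postural load, BF was compared with BG over 3 and 3 arrays. The difference between the muscles in their BF against BG change passed the adjusted p for 39 probe sets (0.172%), of which 6 were called in the *longissimus dorsi*. Among the largest increases these included Fbxo32, which rose by 2.36 in the *longissimus dorsi* and read 0.09 in tongue (adjusted p of the difference = 0.0260), and Tmem140, which rose by 1.56 and read -0.09 in tongue (adjusted p of the difference = 0.0287). Of the 96 called probe sets 6 passed in tongue as well, against 187 of all 22626 probe sets tested in tongue. Pnmt rose there by 1.32 (adjusted p = 0.0258), Nfic by 1.84 (adjusted p = 0.00729) and Tns1 by 1.04 (adjusted p = 0.0136). The others were Fkbp5, Synj2 and Tacc2. With fewer arrays, tongue could show only larger differences, and a link of tongue and back muscle to 1 animal is not given in the sources used here.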

How the data were processed

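RNA of each mouse had been hybridised to 1 array, and the authors summarised and normalised the arrays with RMA in Partek Genomics Suite. The deposited values are log2 intensities per probe set and were used unchanged, without a filter on dim probe sets. Arrays hold no read depth, and their number, 5 per group, limits the precision. Groups came from the sample titles. All 23 arrays entered 1 linear model with 6 groups (muscle by condition) in limma 3.58.1 (R 4.3.3), with empirical Bayes variances and Benjamini-Hochberg adjustment over all 22626 probe sets. P-values set each difference against the spread between arrays within groups, pooled over all 6 groups and both muscles. Called probe sets had an adjusted p below 0.05 together with a more than 2-fold difference. The model and its steps were tested on simulated data.

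The platform annotation named 1 gene for 20380 probe sets, several for 691 and none for 1555, and 20351 of the first were matched to RefSeq by gene ID. Each of 51 gene lists (38 of pathways, 13 of cell types) represented a gene by its brightest probe set. The members and lists were chosen with earlier results of these data known. Values per array were printed for the called genes with the largest changes whose arrays did not overlap, at most 12 in each direction, and for further genes of the lists, some with overlapping arrays, chosen after their values were seen. The text also named all other called genes, up to 4 genes per list with the smallest adjusted p, and genes the study discusses. Calr, Creld2, Dnajb9, Eif3d, Herpud1, Hsp90b1, Nupr1, Pdia4, Prdx4, Ssr2 and Zfand5 were named after their values were seen. Promoter windows came from RefSeq (GRCm38.p6), and figures were drawn with matplotlib 3.10.9. Alternatives were other sets of arrays, no moderation, a variance trend, a brightness filter, requantiling, median centring, array weights, a replicate block, a 1.5-fold limit and leaving out each array.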

Additional observations from a re-analysis of the deposited data

Results flagged for a closer look

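Of 50 groups of 5 arrays set against Dixon's critical value of 0.71, 5 held an array far from the others. The groups shared arrays and were chosen with values known, so the usual chance rate of 1 in 20 does not apply. In BG replicate 5, Lcn2 read 7.86, the mean level of the macrophage markers was 9.52 and that of the mast cell markers was 7.23, each above the other 4 BG mice. Slc39a14 read 7.75 in BG replicate 3, above the other BG mice, and Vcan read 5.22 in BF replicate 2, below the other BF mice.

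Of 191 probe sets whose BF against BG change was set against that in tongue by limma's interaction term, 6 differed. The 191 were called in the *longissimus dorsi* or led a gene list there by adjusted p. That choice by itself favours a larger change there than in tongue. The change in the *longissimus dorsi* exceeded that in tongue by 2.27 and 1.76 for the probe sets of Fbxo32 (adjusted p = 0.0260 and 0.0195), by 1.64 for Tmem140 (adjusted p = 0.0287), by 1.15 for Sesn1 (adjusted p = 0.0287), by 1.05 for Cat (adjusted p = 0.0382) and by 1.03 for Npc1 (adjusted p = 0.0463).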

How the results depend on the processing

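The number of called probe sets, 96, lay between 84 and 136 in all alternatives that kept the 2-fold limit and was 659 with a 1.5-fold limit (460 higher, 199 lower). Leaving out 1 array gave 84 to 125 called probe sets, and 49 of the 96 were called in all 10 such fits (43 higher, 6 lower). The number past the adjusted p, 2318, moved more. It was 1366 with the BF and BG arrays alone, 5095 with array weights, 3595 without the BF and BG arrays of widest spread, and 1272 (without BG replicate 1) to 3869 (without BG replicate 5) when 1 array was left out, with 1430 without BF replicate 4. The cause was not tested. Of the called probe sets 76 were called without BG replicate 5. Of 3793 values for 191 probe sets under the alternatives, 3424 kept their direction and side of the threshold, 369 kept their direction but lost the adjusted p, and 0 reversed.

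Replicate numbers were not treated as pairs. Deviations of same-numbered BF and BG arrays correlated at 0.0930, 0.122, -0.198, 0.356 and 0.0169. The highest correlation of each BF array with a BG array of another number was 0.296, 0.123, 0.133, 0.182 and 0.145. Only BF replicate 4 was thus closest to its own number, and such values cannot show whether mice were paired. A replicate block gave 103 called probe sets, all 96 included, and 2420 past the adjusted p.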
